A study of Bos taurus with 4 samples.

Results

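The 50 genes described here make up the NRF2 pathway and the redox defence of the cell, measured in pools of bovine early blastocysts. NRF2, the protein of NFE2L2, is a transcription factor that KEAP1 holds in the cytoplasm and passes to degradation. Oxidants and electrophiles release it, and with a small MAF partner it then binds antioxidant response elements of genes for glutathione synthesis, thioredoxin recycling, quinone reduction, haem breakdown and iron storage. Glutathione and thioredoxin are the 2 main thiol systems that feed electrons from NADPH to peroxidases. Superoxide dismutases turn superoxide into hydrogen peroxide, which catalase, glutathione peroxidases and peroxiredoxins remove. Embryos produced in vitro meet reactive oxygen species from their own mitochondria and from the oxygen of the culture.

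A member was taken as measured where the array's own annotation gives its symbol to a probe, and of several probes the one with the highest mean signal of both channels stands for the gene. By this rule 49 of the 50 genes had a probe, among 15217 genes with a named probe, and FTL, the ferritin light chain, had none under that symbol. Of these, 47 had a mean brightness over the limit set by the negative controls and entered the test. The 2 others, NQO1 and ABCC1, are given below. The genes were ordered by role into 4 regulators, 20 genes of glutathione, 14 of thioredoxin and peroxiredoxins, 3 of superoxide and catalase, and 9 of detoxification, iron and sensing.

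The pools came from oocytes of Holstein heifers (Bos taurus), at 11 months of age and again at 14 months, and each 11-month pool was set against the pool of the same heifer at 14 months. Both ages shared the whole protocol: progesterone treatment, removal of the dominant follicle, stimulation with FSH, in vitro maturation, fertilization with semen of adult bulls and culture, with collection 168 hours after fertilization. Both pools of a heifer shared an array with 2 colours, so that the 4 replicates are 4 animals and 8 pools. The 11-month pool carried Cy5 in replicates 1 and 2 and Cy3 in replicates 3 and 4. How many embryos made up a pool is not stated in the labels, and donor age cannot be told apart from the time of collection.

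The arrays of a dye orientation resembled each other. Over the 36447 tested probes, Pearson's r of the log2 ratios was 0.58 for replicates 1 and 2, 0.28 for replicates 3 and 4, and -0.18 to 0.14 for the other pairs, a description across probes, which are not independent. A pool had 63.6% to 71.6% of all probes over the limit of the negative controls, called background below, and the brightest spot was at 59161 of a linear scale. With 4 arrays, precision is limited by their number. Markers of the blastocyst were present: 13 of 14 trophectoderm markers and 9 of 9 inner cell mass markers were above background in all 8 pools. Of 14 cumulus and granulosa markers 8 were above it in all 8 pools and 2, AMH and FOXL2, in none. Of 11 oocyte markers 1 was above it in all 8 pools and 2, GDF9 and NOBOX, in none. Of 4 blood markers 3 were above it in all 8 pools, and of 8 sperm markers 0. The share over all tested genes was 67.5%, but these marker counts include dim markers that were not tested. Of the tested markers, 8 of 12 for cumulus and granulosa, or 66.7%, were above background in all 8 pools. For oocyte this held for 1 of 9 tested markers and for sperm for 0 of 6. The summed linear signal of the cumulus and granulosa markers was 7230 to 8225 in the 11-month pools and 5458 to 8597 in the 14-month pools, ranges that overlap, and their part in the results was not tested.

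No redox gene passed the test between donor ages. In limma's moderated test with Benjamini-Hochberg adjustment over all 36447 probes, 0 of the 47 were past an adjusted p of 0.05, and the lowest adjusted p was 0.409, for GPX2. Over all 13520 tested genes the count was also 0, or 0%. At an unadjusted p under 0.05, which carries no claim of significance, 1 member was higher in the 11-month pools, MGST1, and 4 were lower, GPX2, PRDX3, GSTP1 and GLRX. The share of members was 2.13% for higher, against 4.96% of all tested genes, and 8.51% for lower, against 5.16%. Over the 9121 genes above background in all 8 pools, to which 42 of the 47 members belonged, the shares were 7.21% and 6.64%. With so few members called, neither count stands far from these shares. With a probe-specific dye term in the fit the counts were 5 higher and 7 lower, or 10.6% and 14.9% of the members, against 8.12% and 10% of all tested genes in the same fit. With the 8 pools fitted without the array as a block they were 0 and 3, or 0% and 6.38%, against 2.14% and 3.45%. In bulk pools, fewer cells of a type and less RNA per cell cannot be told apart.

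The median log2 ratio of the 47 genes was -0.02, against 0.00 over all tested genes, and single genes ran between -0.65 and 0.42. Here and below, a positive log2 ratio is a higher signal in the 11-month pool, and errors are SDs over the 4 heifers. Means lay above 0 in 20 of the genes and below 0 in 27. The ratio had 1 sign on all 4 arrays in 6 genes. MAFG and SOD1 were higher in all 4 heifers, 4.26% of the members against 8.48% of all tested genes. GPX1, GPX2, PRDX3 and CAT were lower in all 4, 8.51% against 7.94%. In the series matrix, the authors' ratios of the same arrays, MAFG was at -0.07 in replicate 3 and GPX1 at 0.03 in replicate 1. These 2 genes thus did not keep 1 sign there. A mean change of at least 1.5-fold was reached by 2 members, GSTP1 and GLRX, and by 1.55% of all tested genes. The median size of the mean ratio was 0.16 and the median SD between heifers 0.28. The corresponding medians were 0.10 and 0.22 over all tested genes and 0.13 and 0.26 over the 9121 genes above background in all 8 pools, where 42 of the 47 members belonged.

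**Figure D1:**
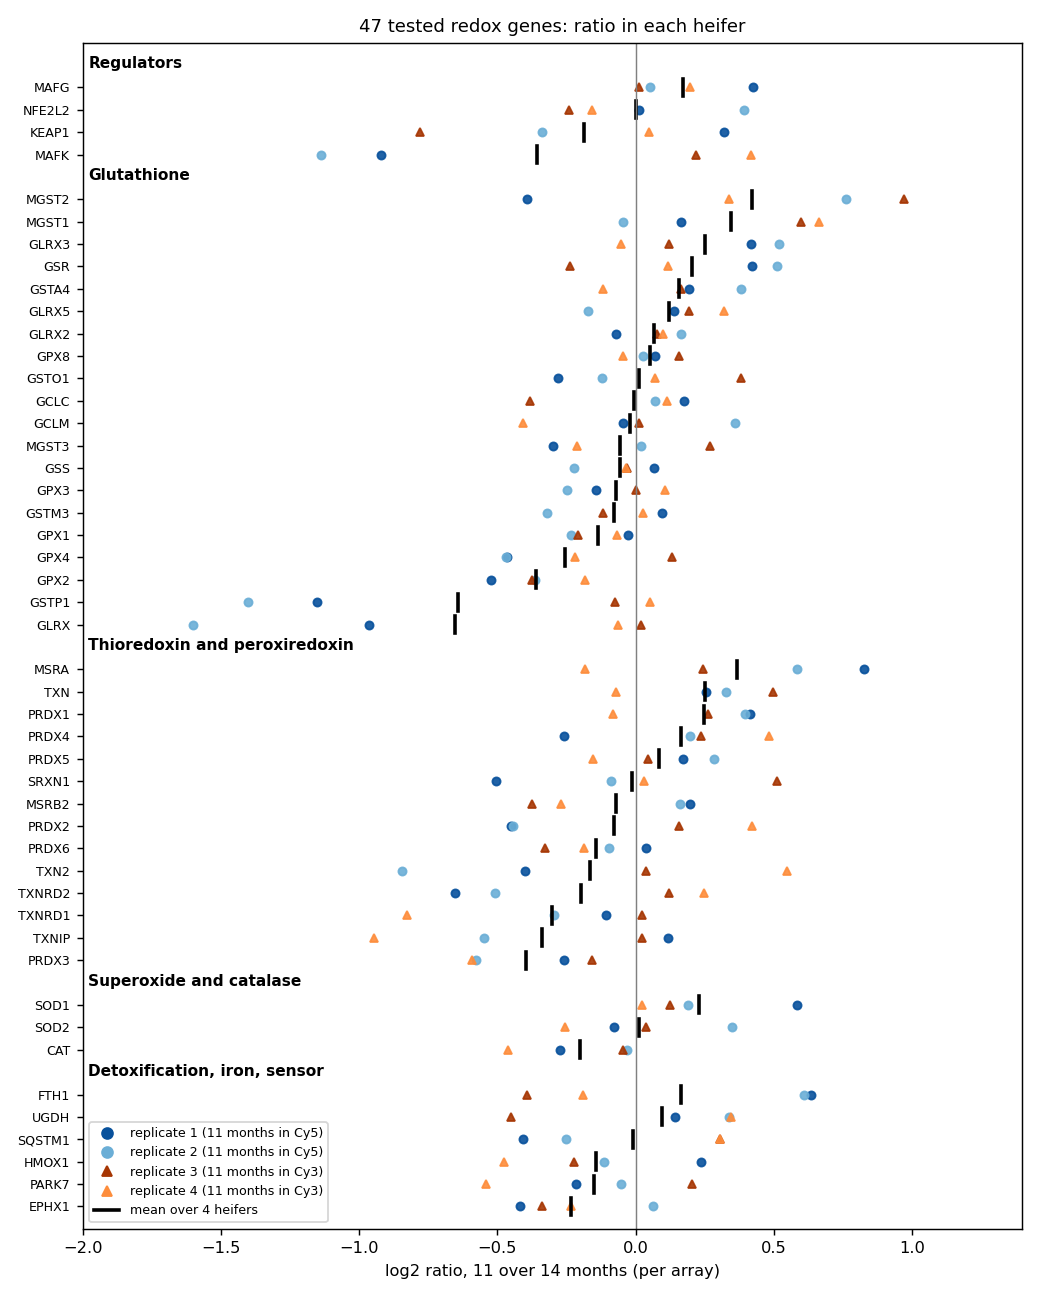
Log2 ratio of 11 over 14 months (x axis) on each of the 4 arrays for the 47 tested redox genes (y axis), by role and by mean; circles are arrays with the 11-month pool in Cy5, triangles in Cy3, and black bars the mean over 4 heifers. GSTP1, GLRX and MAFK have both circles far to the left of both triangles, while the 4 points of GPX2 and of PRDX3 lie on the left of 0.

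Among the regulators, the sensor pair differed little between ages. NFE2L2 had normalised log2 signals of 10.47, 10.95, 10.31 and 10.67 in replicates 1 to 4 of the 11-month pools, against 10.46, 10.56, 10.55 and 10.82 in the 14-month pools. The groups overlapped, and the mean log2 ratio was 0.00 ± 0.28 with an adjusted p of 0.998 in limma. KEAP1, which was at 9.44, 8.72, 8.88 and 8.76 in the 11-month pools, was at 9.12, 9.06, 9.66 and 8.71 in the 14-month pools. Its ratio was -0.19 ± 0.48, it was positive in replicates 1 and 4 and negative in replicates 2 and 3, and without replicate 3 the mean was 0.01.

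The small MAF proteins are the partners with which NRF2 binds DNA. MAFG was at 0.17 ± 0.19, with 0.42, 0.05, 0.01 and 0.20 in replicates 1 to 4. MAFK showed the widest split by dye orientation of the regulators, at -0.92 and -1.14 in replicates 1 and 2 but at 0.22 and 0.42 in replicates 3 and 4. Its 11-month signals of 7.24, 7.30, 8.12 and 8.60 stood against 8.16, 8.43, 7.90 and 8.19 in the 14-month pools, so that the groups overlapped. The mean was -0.36 ± 0.79, or -0.095 without replicate 2, and the orientation term of the fit with a dye term had an adjusted p of 0.0297. Of all 36447 probes, 513 or 1.41% passed for that term, and of the redox genes MAFK and GSTP1 did. In such a term the dye and the 2 heifers that share it cannot be told apart.

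Glutathione is made by the ligase of GCLC, its catalytic subunit, and GCLM, its modifier, and by the synthetase GSS, and GSR returns its oxidized form to the reduced one. None of these 4 genes had an unadjusted p under 0.05. GCLC had log2 signals of 7.02, 6.68, 6.65 and 6.96 in the 11-month pools, against 6.84, 6.61, 7.03 and 6.85 in the 14-month pools, with a ratio of -0.01 ± 0.25. Its probe was dim, above background in 4 pools of 11 months and in 3 of 14 months. GCLM was at 9.16, 9.46, 8.69 and 8.68 in the 11-month pools, against 9.21, 9.10, 8.67 and 9.09 in the 14-month pools, with a ratio of -0.02 ± 0.31. Both genes of the ligase thus lay close to equal signal at the 2 ages, with heifers on both sides of 0. GSR was at 0.20 ± 0.34 and GSS at -0.06 ± 0.12.

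The glutathione peroxidases reduce peroxides at the expense of glutathione. Of the 5 measured, 4 had a mean below 0, and 1, GPX2, had an unadjusted p under 0.05. GPX2, the form best known from epithelia of the gut, had log2 signals of 7.35, 7.79, 7.12 and 7.47 in the 11-month pools, against 7.87, 8.16, 7.50 and 7.66 in the 14-month pools. The groups overlapped, since replicates differed in level, where heifer and array cannot be told apart. Within each heifer the 11-month pool was the lower, by ratios of -0.52, -0.36, -0.37 and -0.18. The mean was -0.36 ± 0.14, or 1.28-fold higher at 14 months, with an adjusted p of 0.409 in limma. It was -0.44 in replicates 1 and 2 and -0.28 in replicates 3 and 4, and ran between -0.42 and -0.31 without 1 replicate.

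GPX1, the abundant cytosolic peroxidase, was lower in all 4 heifers by a smaller amount, at -0.03, -0.23, -0.21 and -0.07 and a mean of -0.13 ± 0.10. GPX4, which reduces lipid peroxides within membranes, was at -0.46 and -0.47 in replicates 1 and 2 but at 0.13 and -0.22 in replicates 3 and 4, with a mean of -0.25 ± 0.28. The secreted GPX3 was at -0.07 ± 0.16 from a probe above background in 1 pool of 11 months and 2 of 14 months, and the endoplasmic reticulum peroxidase GPX8 was at 0.05 ± 0.09.

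**Figure D2:**
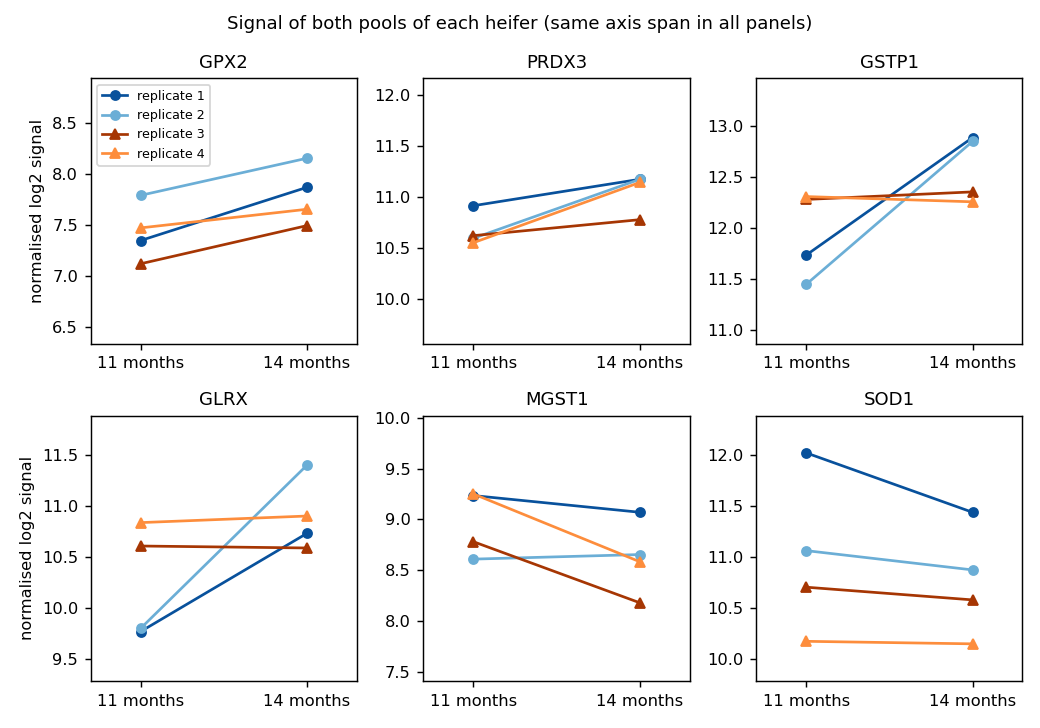
Normalised log2 signal (y axis) of the 11-month and the 14-month pool of each of 4 heifers, joined by a line, for 6 redox genes; each panel has its own range but the same span. All 4 lines of GPX2 and of PRDX3 are lower at 11 months, those of SOD1 are higher at 11 months, and in GSTP1 and GLRX the difference is in replicates 1 and 2.

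Glutathione transferases join glutathione to electrophiles. GSTP1, the pi-class enzyme, had log2 signals of 11.74, 11.45, 12.28 and 12.31 in the 11-month pools, against 12.89, 12.85, 12.36 and 12.26 in the 14-month pools. Replicates 1 and 2 were low at 11 months and high at 14 months, and replicates 3 and 4 were close to equal. The ratios were -1.15, -1.40, -0.07 and 0.05, with a mean of -0.64 ± 0.74, or 1.56-fold higher at 14 months, and an adjusted p of 0.515 in limma. The 2 further probes of GSTP1 gave the same pattern, at -0.49 ± 0.38 and -0.51 ± 0.59. With a dye term the adjusted p for age was 0.0565, and the orientation term itself had an adjusted p of 0.0321. Without replicate 2 the mean was -0.39.

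The other cytosolic transferases lay near 0. GSTO1, of the omega class, was at 0.01 ± 0.29, GSTM3, of the mu class, at -0.08 ± 0.18 from a probe above background in 1 pool of 11 months and 3 of 14 months, and GSTA4, which acts on lipid aldehydes, at 0.16 ± 0.21. The microsomal transferases are membrane proteins of a separate family. MGST1 had log2 signals of 9.23, 8.61, 8.78 and 9.25 in the 11-month pools, against 9.07, 8.66, 8.18 and 8.59 in the 14-month pools. Its ratios were 0.16, -0.04, 0.60 and 0.66, with a mean of 0.35 ± 0.34, or 1.27-fold, and an adjusted p of 0.515 in limma. The excess at 11 months was thus in replicates 3 and 4, the opposite orientation from GSTP1. MGST2, the member with the highest mean, was at 0.42 ± 0.60, with -0.39, 0.76, 0.97 and 0.34 in replicates 1 to 4. Its mean was 0.69 without replicate 1, 0.24 without replicate 3 and 0.25 with mean foreground signals. A second, dimmer probe of MGST2 had another pattern, at 0.35, 0.62, -0.14 and -0.28, a mean of 0.14 ± 0.42. MGST3 was at -0.06 ± 0.25.

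Glutaredoxins remove glutathione from protein thiols or, in the case of GLRX3 and GLRX5, help to carry iron-sulfur clusters. GLRX, the cytosolic enzyme, had log2 signals of 9.77, 9.80, 10.61 and 10.84 in the 11-month pools, against 10.73, 11.40, 10.59 and 10.90 in the 14-month pools. As in GSTP1, replicates 1 and 2 carried the difference, with ratios of -0.96, -1.60, 0.02 and -0.06, a mean of -0.65 ± 0.77 and an adjusted p of 0.524 in limma. Without replicate 2 the mean was -0.34. The orientation term had an adjusted p of 0.0634. The array annotates 2 probes as GLRXL, an older symbol which the reference table lists as a synonym of GLRX. Their ratios were 0.03 ± 1.05 and 0.08 ± 0.19. Both were brighter than the GLRX probe. The second was at -0.01, 0.22, 0.26 and -0.14 in replicates 1 to 4. The first, the brightest, was at 1.05, 0.82, -0.79 and -0.95. It was thus split by orientation, with the opposite sign to the GLRX probe in replicates 1 and 2. No direction can therefore be given for GLRX. GLRX2, of mitochondria, was at 0.07 ± 0.10, GLRX3 at 0.25 ± 0.26 and GLRX5 at 0.12 ± 0.21, the last 2 with 1 heifer each below 0. A second tested probe of GLRX3 was at -0.15 ± 0.37, and the mean of both probes was 0.053.

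In the thioredoxin arm, 5 of 14 genes had a mean above 0 and 9 below it, of which SRXN1, near 0, was above it in the series matrix. The median was -0.08. TXN, the cytosolic thioredoxin, was at 0.26, 0.33, 0.50 and -0.07 in replicates 1 to 4, a mean of 0.25 ± 0.24. TXNRD1, its reductase and a classical NRF2 target, had log2 signals of 13.57, 13.62, 13.86 and 13.53 in the 11-month pools, against 13.67, 13.91, 13.84 and 14.35 in the 14-month pools. Its ratio was -0.30 ± 0.37, replicate 4 at -0.83 was the farthest from 0, and without replicate 4 the mean was -0.13. A second, dim probe of TXNRD1 was at 0.02 ± 0.17. TXNIP, which binds and inhibits thioredoxin, was likewise lowest in replicate 4, at -0.95, with a mean of -0.34 ± 0.50. Without that replicate TXNIP was at -0.14.

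In mitochondria the partners are TXN2 and its reductase TXNRD2. TXN2 was at -0.40 and -0.84 in replicates 1 and 2 but at 0.04 and 0.55 in replicates 3 and 4, and its 6 tested probes had means between -0.35 and 0.19, with SDs of 0.41 to 0.71. The brighter probe of TXNRD2 was at -0.65 and -0.51 in replicates 1 and 2 but at 0.12 and 0.25 in replicates 3 and 4, from a probe above background in 3 pools of 11 months and 4 of 14 months. The mean ratios of TXN2 and TXNRD2 were -0.16 ± 0.60 and -0.20 ± 0.45. A second probe of TXNRD2, of nearly the same signal, was at 0.24, -0.21, 0.26 and -0.0029 in replicates 1 to 4 and did not show this split. The orientation term did not pass for either gene, with adjusted p of 0.121 for TXN2 and 0.076 for TXNRD2 in limma.

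Peroxiredoxins are thiol peroxidases, most of which thioredoxin restores. PRDX3, the form of mitochondria, had log2 signals of 10.91, 10.60, 10.62 and 10.55 in the 11-month pools, against 11.17, 11.17, 10.78 and 11.14 in the 14-month pools. The 11-month pool was the lower one in every heifer, by -0.26, -0.58, -0.16 and -0.59, although replicate 1 at 11 months lay above replicate 3 at 14 months. The mean was -0.40 ± 0.22, or 1.32-fold higher at 14 months, with an adjusted p of 0.427 in limma. Both orientations gave the same size, -0.42 and -0.37, and the mean ran between -0.48 and -0.33 without 1 replicate. A second tested probe, much dimmer, was at -0.15 ± 0.29.

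The other 5 peroxiredoxins did not share this pattern. PRDX1, of the cytosol, was at 0.41, 0.40, 0.26 and -0.08, a mean of 0.25 ± 0.23, PRDX4, of the endoplasmic reticulum, at 0.16 ± 0.31 and PRDX5 at 0.09 ± 0.19. PRDX2 was at -0.45 and -0.44 in replicates 1 and 2 but at 0.16 and 0.42 in replicates 3 and 4. PRDX6, which also acts on phospholipids, was at -0.14 ± 0.15, and its 5 probes had means between -0.25 and 0.20. Of the 6 genes, 3 thus had a mean above 0 and 3 below.

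The repair enzymes lay on both sides of 0. SRXN1, which rescues over-oxidized peroxiredoxins, had log2 signals of 9.72, 9.53, 9.64 and 9.18 in the 11-month pools, against 10.22, 9.62, 9.13 and 9.14 in the 14-month pools, with a ratio of -0.01 ± 0.42. MSRA, which reduces oxidized methionine, was at 0.83, 0.59, 0.24 and -0.18, a mean of 0.37 ± 0.44. Its 2 further probes were at 0.00 ± 0.19 and -0.08 ± 0.26 and did not show this excess. MSRB2, its mitochondrial counterpart, was at -0.07 ± 0.29 from a probe above background in 3 pools of 11 months and 3 of 14 months.

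Superoxide is removed by SOD1 in the cytosol and SOD2 in mitochondria, and hydrogen peroxide by CAT in peroxisomes. SOD1 had log2 signals of 12.02, 11.06, 10.70 and 10.17 in the 11-month pools, against 11.44, 10.87, 10.58 and 10.15 in the 14-month pools. Replicates, each 1 heifer on 1 array, differed more than ages. The 11-month pool was the higher in each, by 0.58, 0.19, 0.12 and 0.02, with a mean of 0.23 ± 0.24 and an adjusted p of 0.61 in limma. A second, dimmer probe of SOD1 was higher in all 4 heifers too, at 0.64, 0.61, 0.37 and 0.24, a mean of 0.46 ± 0.19. In limma its adjusted p was 0.394 and its unadjusted p 0.0031. The brighter probe, which stands for SOD1 in the counts, had an unadjusted p of 0.086. Without replicate 1 the mean of the brighter probe was 0.11.

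SOD2 was level, with log2 signals of 12.99, 13.15, 13.21 and 13.13 in the 11-month pools, against 13.07, 12.80, 13.17 and 13.38 in the 14-month pools, and a ratio of 0.01 ± 0.25. CAT had 11.61, 12.15, 12.00 and 12.31 in the 11-month pools, against 11.88, 12.18, 12.05 and 12.77 in the 14-month pools. It was the lower at 11 months in every heifer, by -0.27, -0.03, -0.04 and -0.46, of which those of replicates 2 and 3 are small. The mean was -0.20 ± 0.21, with an adjusted p of 0.634 in limma, -0.12 without replicate 4 and -0.051 with mean in place of median foreground signals.

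**Figure D3:**
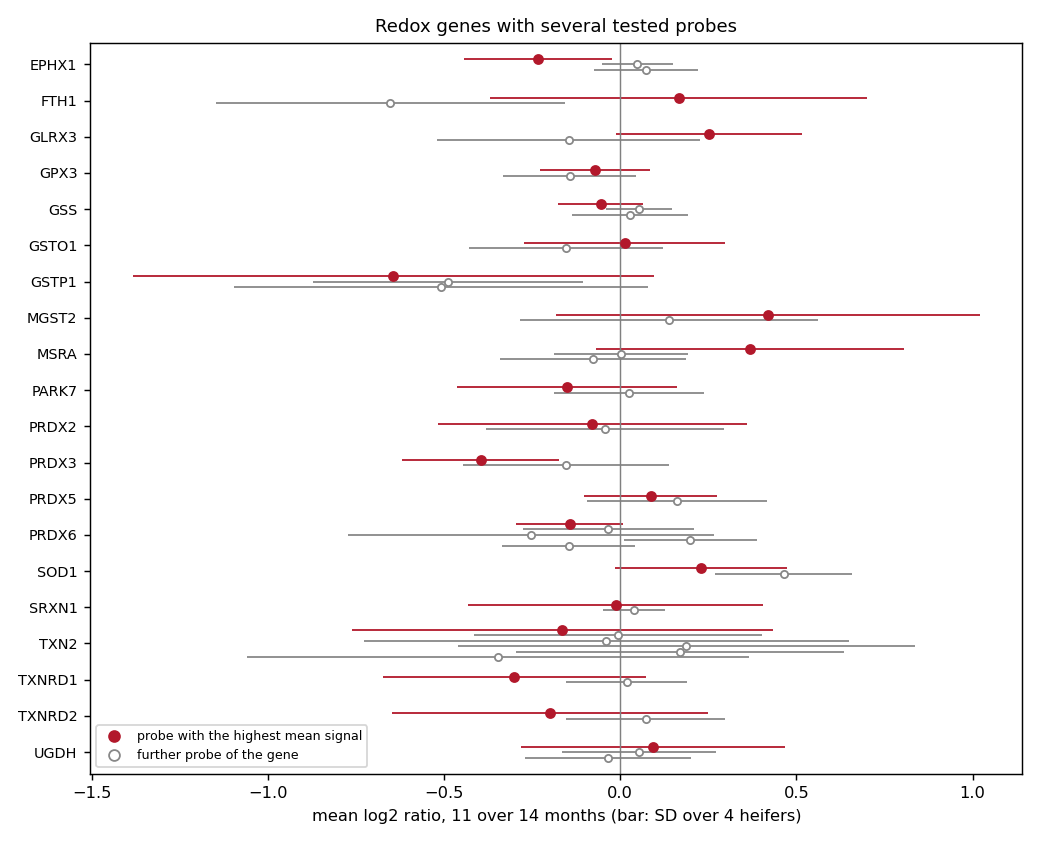
Mean log2 ratio of 11 over 14 months (x axis, bars are SDs over 4 heifers) for each tested probe of the 20 redox genes with several (y axis), filled for the probe with the highest mean signal. The 3 probes of GSTP1 and both of SOD1 lie on the same side of 0, and both of FTH1 on opposite sides.

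Of the remaining NRF2 targets, 2 could not be measured. NQO1, the quinone reductase used most often as a readout of NRF2, had log2 signals of 6.35, 6.42, 6.52 and 6.34 in the 11-month pools, against 6.60, 6.48, 6.53 and 6.45 in the 14-month pools. None of these was above background, and the same held for ABCC1, an exporter of glutathione conjugates. HMOX1, the haem oxygenase, was at 7.61, 7.61, 6.81 and 7.76 in the 11-month pools, against 7.37, 7.72, 7.03 and 8.23 in the 14-month pools. Its ratio was -0.14 ± 0.30, positive in replicate 1 and negative in the other 3 heifers, with an adjusted p of 0.821 in limma.

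FTH1, the ferritin heavy chain that stores iron, gave answers that depended on the probe. The brighter one was at 0.64 and 0.61 in replicates 1 and 2 but at -0.39 and -0.19 in replicates 3 and 4, a mean of 0.17 ± 0.53. The second was at 0.03, -0.85, -1.13 and -0.66, a mean of -0.65 ± 0.49, and it was the 1 probe of opposite sign at an unadjusted p under 0.05 among the members. No direction can therefore be given for FTH1. Of the 20 members with several tested probes, 13 had a probe of the other sign: EPHX1, FTH1, GLRX3, GSS, GSTO1, MSRA, PARK7, PRDX6, SRXN1, TXN2, TXNRD1, TXNRD2 and UGDH.

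SQSTM1, an autophagy receptor that binds KEAP1, was at -0.41 and -0.25 in replicates 1 and 2 but at 0.31 in both replicates 3 and 4. EPHX1, the microsomal epoxide hydrolase, was at -0.23 ± 0.21, with replicate 2 alone above 0. Both other tested probes of EPHX1, dimmer, lay above 0, at 0.05 ± 0.10 and 0.07 ± 0.15, and the mean of the 3 probes was -0.037. UGDH, which makes the sugar donor for glucuronidation, was at 0.09 ± 0.37, and PARK7, a sensor of oxidation, at -0.15 ± 0.31.

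Set side by side, the arms had no common direction. The median of the mean log2 ratios was -0.01 in the glutathione arm, -0.08 in the thioredoxin and peroxiredoxin arm, 0.01 in the superoxide arm, -0.09 in the regulators and -0.08 in the genes of detoxification, iron and sensing. The medians of the single arrays spread by 0.06, 0.09, 0.19, 0.16 and 0.14 (SD) in the same order, so that no arm's median lay farther from 0 than the spread between heifers. Arm medians of single arrays ran between -0.28, in detoxification in replicate 3, and 0.19, in superoxide in replicate 2. The arms of 3 to 6 genes have few members behind each median. At an unadjusted p under 0.05 the glutathione arm had 1 gene higher and 3 lower, or 5% and 15% of its genes, and the thioredoxin arm 0 and 1, or 0% and 7.14%. The other arms had none, and the shares of all tested genes were 4.96% and 5.16%.

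**Figure D4:**
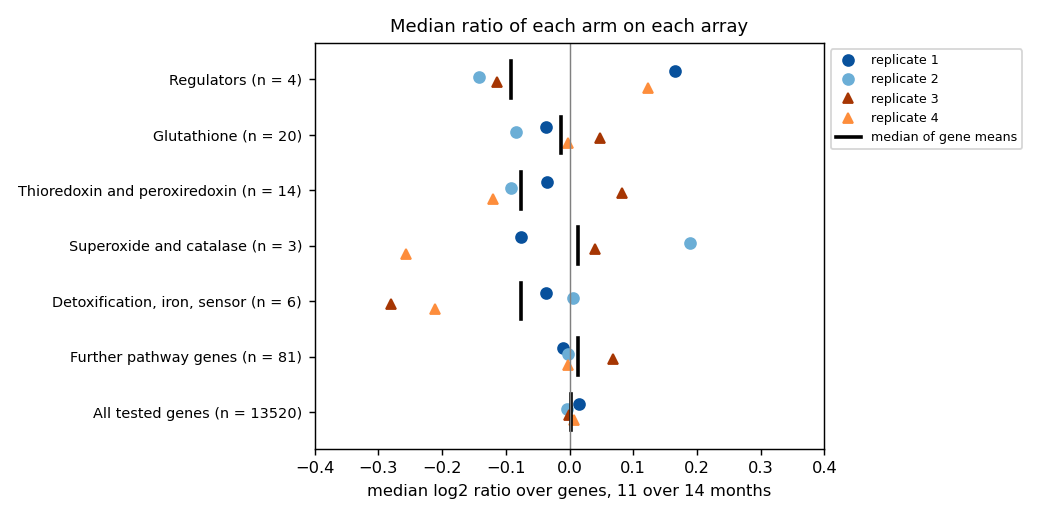
Median log2 ratio of 11 over 14 months over the genes of each arm (x axis) on each of the 4 arrays (circles, 11-month pool in Cy5; triangles, in Cy3), with the median of the gene means as a black bar. Every arm has arrays on both sides of 0, and the medians over all 13520 tested genes lie within 0.02 of it.

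By dye orientation, 21 of the 47 members, or 44.7%, had means of opposite sign in replicates 1 and 2 and in replicates 3 and 4, against 55.5% of all tested genes. No member had both means over 0.58 in size with opposite signs, against 0.451% of genes. GSTP1 and GLRX had means of -1.28 and -1.28 in replicates 1 and 2 and of -0.01 and -0.02 in replicates 3 and 4. MGST1 and MGST2 were at 0.06 and 0.19 in replicates 1 and 2 but at 0.63 and 0.65 in replicates 3 and 4. A trophectoderm keratin, KRT8, was split by orientation more widely, at 1.37 and 1.15 in replicates 1 and 2 but at -1.57 and -1.61 in replicates 3 and 4. It was singled out after its values were seen, and the list did not share its split: the median over 14 trophectoderm markers was 0.32 in replicates 1 and 2 but 0.01 in replicates 3 and 4, and 7 of 14 markers, or 50%, had means of opposite sign. The summed linear signal of the 14 trophectoderm markers was 60746 to 104569 in the 11-month pools and 62681 to 112822 in the 14-month pools. Their part in the values of GSTP1, GLRX and MAFK was not tested.

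**Figure D5:**
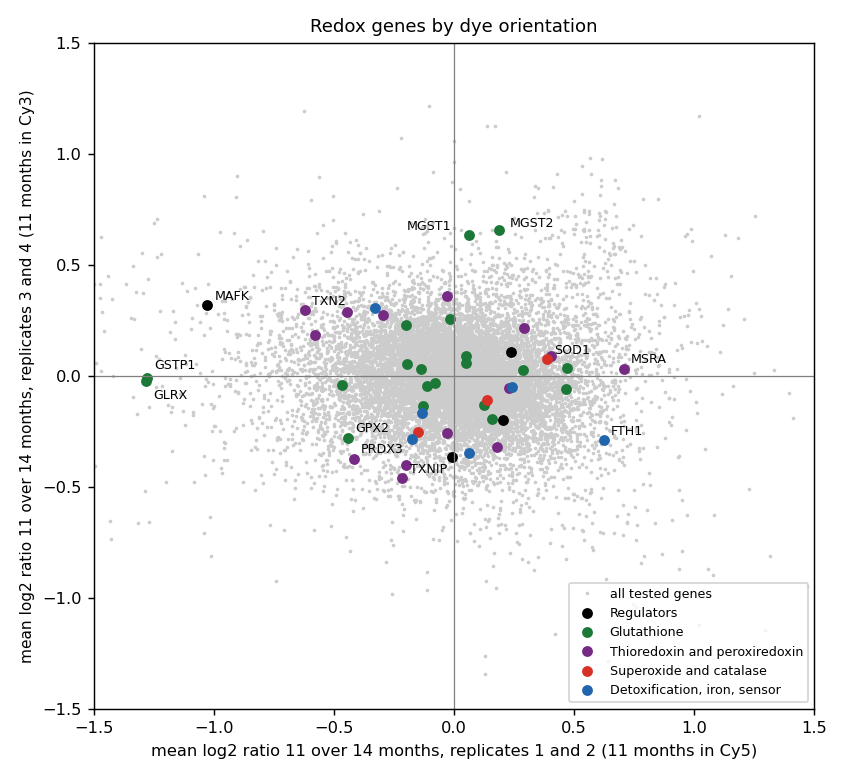
Mean log2 ratio of 11 over 14 months in replicates 1 and 2 (x axis, 11-month pool in Cy5) and in replicates 3 and 4 (y axis, 11-month pool in Cy3) for the redox genes by arm, over all tested genes in grey; 47 of these lie outside the axes. GPX2 and PRDX3 sit at lower left, and MAFK, GSTP1 and GLRX at far left near or above the level of 0.

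A list of 86 further genes of glutathione, NADPH and selenoprotein metabolism and of NRF2 control was set beside the members, and 81 were tested. Of these 0 passed the adjusted threshold, with a lowest adjusted p of 0.394 in limma, and at an unadjusted p under 0.05 there were 5 higher and 6 lower, or 6.17% and 7.41%. The median was 0.01. The 4 with the smallest p were SEPHS2, TKT, PTGR1 and GPX7. SEPHS2, which makes the selenium donor for selenoproteins such as GPX1 to GPX4, was higher in all 4 heifers, at 0.40, 0.53, 0.40 and 0.22, a mean of 0.39 ± 0.13. TKT, a transketolase of the pentose phosphate pathway, was lower in all 4, at -0.16, -0.54, -0.49 and -0.16. PTGR1, a reductase of prostaglandins and lipid aldehydes, was at 0.34 ± 0.25, and GPX7, a peroxidase of the endoplasmic reticulum, at -0.27 ± 0.15 from a probe above background in 3 pools of 11 months and 4 of 14 months.

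In the series matrix, the authors' log2 ratios of the same arrays, 43 of the 47 members had the same sign of the mean, and no mean differed by more than 0.089. GPX2 was at -0.36, PRDX3 at -0.41, GSTP1 at -0.62, GLRX at -0.67 and MGST1 at 0.41 there. The 4 that differed in sign were NFE2L2, GCLC, SRXN1 and SQSTM1, each with a mean within 0.03 of 0 in both.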

How the data were processed

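RNA of both pools was amplified and labelled with Cy3 or Cy5, per the labels' protocols. The deposited scanner files hold the intensity of each spot and its local background on a linear scale, per the file headers. The authors also deposited log2 ratios whose normalization the labels do not state. A deposited table gives them as Cy5 over Cy3, and the series matrix holds the same values with replicates 3 and 4 turned. The matrix thus ran 11 over 14 months on all arrays, correlated at 0.986 to 0.993 with background-subtracted loess ratios (slopes 0.884 to 1.08, from which base 2 was taken) and had medians of 0.00853, 0.00336, 0.00104 and 0.0234. Its centring stays unknown.

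Median signals were corrected by normexp (offset 50) and normalized by loess within arrays, with 1426 control and blank spots at weight 0, in R 4.3.3 with limma 3.58.1. These ratios were the main values and the series matrix an alternative. Probes over the mean plus 2 SD of 153 negative controls were tested, 36447 of 43794, and the same limit per channel defined background. Signals of single pools were also scaled between arrays (Aquantile). lmFit and eBayes had 3 residual and 3.71 prior degrees of freedom. For 1 gene alone, flipping the signs of 4 ratios gives an exact p of 0.125 at best.

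Names came from GEO's platform annotation: 21790 probes had 1 symbol, 0 several and 22004 none. Of those symbols 20025 were current in RefSeq's bovine table and 1524 were synonyms there. Probe sequences were not used, so that cross-reaction within gene families, or with pseudogenes as for FTH1, was not checked. All values are given for members at an unadjusted p under 0.05, NFE2L2, KEAP1, 6 classical targets and the superoxide arm, and ratios for the others. MAFK, FTH1 and GLRXL were enlarged on after their values were seen. The members and lists were chosen with earlier results of these data known. In simulated arrays of 36447 probes, 98 of 100 changes of 1 and 99 of 100 changes of 2 on the log2 scale were recovered. There were 14 false calls in all. The simulated noise was independent between arrays, whereas the real arrays resembled each other within a dye orientation. The recovery therefore does not measure which changes these arrays could detect. Plots used Python 3.11.15 and matplotlib 3.10.9.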

Additional observations from a re-analysis of the deposited data

How the results depend on the processing

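No member passed the adjusted threshold under any alternative run. The members at an unadjusted p under 0.05 were 1 higher and 4 lower. They became 2 higher with no background correction, local background subtracted, mean foreground signals, the series matrix and the mean of all probes of a gene. For the mean of all probes no share of all tested genes is given. In the other of these runs 4.26% of the members were higher, against 4.32% to 5.29% of all tested genes. Lower were 6.38% to 8.51% of the members there, against 4.22% to 6.09%. With median centring 1 member was higher and 4 were lower, or 2.13% and 8.51%, against 3.45% and 2.43% of all tested genes. The 5 members of that run were CAT, GPX2, MSRA, PRDX3 and TXNRD1. With a probe-specific dye term the members were 5 higher and 7 lower, or 10.6% and 14.9%, against 8.12% and 10% of all tested genes. Without the array as a replicate block, which removes the pairing of both pools of a heifer, they were 0 higher and 3 lower, or 0% and 6.38%, against 2.14% and 3.45% of all tested genes. Without 1 replicate they were 1 to 4 higher and 2 to 6 lower. The lower count was 2 without replicate 1, and the higher count 4 without replicate 4 and 2 without replicate 1 or 3. Without replicates 1 to 4 in turn, 4.26%, 2.13%, 4.26% and 8.51% were higher, against 3.99%, 1.92%, 4.05% and 5.81% of all tested genes. Lower were 4.26%, 6.38%, 12.8% and 8.51%, against 4.06%, 2.39%, 5.05% and 6.11%. PRDX3 was called at this level in all of these runs and GPX2 in all except that without the replicate block, while GSTP1, GLRX and MGST1 each dropped out in several. Genes with 1 sign on all arrays and higher at 11 months were 2, but 0 with no background correction and 5 in the series matrix. Those 5 were SOD1, MGST1, GLRX3, TXN and PRDX1. For these alternative runs no share of all tested genes is given, so that nothing can be read from the change in count. The median over the members was -0.064 to 0.00019 without 1 replicate, and that of the thioredoxin arm -0.12 to 0.017. In replicates 1 and 2 alone the median of the regulators was 0.10, and in replicates 3 and 4 alone that of the thioredoxin arm was 0.061 and that of the detoxification arm -0.23.

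Under other processing, the mean of all probes or the GLRXL probe, signs that turned were of genes near 0, apart from FTH1 and GLRX. Single further probes of a gene also turned signs farther from 0. GLRX3 was at 0.25 and -0.15 by its 2 tested probes, and MSRA at 0.37 by the brightest and -0.08 by the dimmest. Without 1 replicate, KEAP1 and TXN2 turned too, from -0.19 and -0.16 over all arrays. In replicates 1 and 2 alone 7 members had another sign than over all arrays, and in replicates 3 and 4 alone 14. The latter included MAFK at 0.32, TXN2 at 0.29, PRDX2 at 0.29, TXNRD2 at 0.18 and FTH1 at -0.29. With no background correction NFE2L2 was at -0.011 and GSTO1 at -7.67e-05. With local background subtracted NFE2L2 was at -0.011, GCLC at 0.019 and GSTO1 at -0.00021. With mean foreground signals GCLC was at 0.041, GCLM at 0.043, GSTO1 at -0.058, SOD2 at -0.043 and SQSTM1 at 0.059. With median centring NFE2L2 was at -0.036, GCLC at 0.058, GSTO1 at -0.018 and SOD2 at -0.049. In the series matrix NFE2L2 was at -0.0087, GCLC at 0.030, SRXN1 at 0.0039 and SQSTM1 at 0.017. With the mean of all probes GSS was at 0.0085, GSTO1 at -0.070, SRXN1 at 0.014 and FTH1 at -0.24. From the GLRXL probe, an alternative chosen after seeing the data, GLRX was at 0.034. Without 1 replicate, the mean ran from -0.13 to 0.083 for NFE2L2, -0.36 to 0.011 for KEAP1, -0.066 to 0.12 for GCLC, -0.15 to 0.11 for GCLM and -0.10 to 0.00019 for GSS. It ran from -0.11 to 0.11 for GSTO1, -0.14 to 0.0018 for GSTM3, -0.16 to 0.026 for MGST3, -0.40 to 0.062 for TXN2 and -0.25 to 0.044 for PRDX2. It ran from -0.19 to 0.15 for SRXN1, -0.16 to 0.029 for MSRB2, -0.10 to 0.10 for SOD2 and -0.12 to 0.12 for SQSTM1. Some values kept their sign but were over 1.5 times smaller: with mean foreground signals MGST2 was at 0.25, PRDX1 at 0.11, GSTA4 at 0.068, KEAP1 at -0.11, TXNRD2 at -0.10, CAT at -0.051, FTH1 at 0.039 and PARK7 at -0.097. With the mean of all probes MGST2 was at 0.28, MSRA at 0.098, GLRX3 at 0.053, TXNRD1 at -0.14, TXN2 at -0.033, TXNRD2 at -0.063, PRDX6 at -0.076, EPHX1 at -0.037 and PARK7 at -0.063, while SOD1 was larger, at 0.35. The cause of these changes was not tested. Dim probes, such as those of GCLC, GPX3, GSTM3, TXNRD2 and MSRB2, limit what their ratios can show.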
